A study of Mus musculus with 32 samples.

Results

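The genes that build and drive the contractile apparatus of smooth muscle were followed in the mouse uterus from the non-pregnant state to late pregnancy. The set holds 34 genes, taken by symbol for their place in this apparatus. A gene was measured where a probe with its symbol had a detection p-value of at most 0.05 on any array. This held for 30 genes with 49 probes, among 13439 measured genes in all. Myl9, Flna, Ppp1r12b and Filip1l had no such probe. They may still have been detected, as 1266 kept probes carry no symbol. RNA from the uterus of FVB/N mice, a wild-type inbred strain, was hybridised to Illumina MouseRef-8 v2 arrays, and each array held the RNA of 1 mouse. Non-pregnant mice (NP, n = 4) were set beside mice at embryonic day E6.5 and E8.5 (n = 4 each) and at E10.5 and E12.5 in mid pregnancy and E15.5 and E17.5 in late pregnancy (n = 5 each), counted from the vaginal plug, and no treatment was given. Tissue of pregnant mice came from implantation sites, freed of embryo and placenta and with the decidua scraped away, and RNA samples of the same mouse were pooled. No such dissection is described for NP mice, which were taken at random, so pregnancy and dissection cannot be told apart in any comparison with NP.

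Smooth muscle shortens when myosin filaments pull on actin filaments that are anchored at dense bodies in the cell and at dense plaques on its membrane. Calcium released from the store or entering the cell activates myosin light chain kinase, which switches myosin on, and a phosphatase switches it off. Serum response factor and its partner myocardin turn on many of these genes. In pregnancy the muscle wall of the uterus, the myometrium, grows and stretches while it stays largely quiet, and it contracts strongly at labour.

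Levels below are the deposited log2 intensities, whose median is 6.12 on every array and which run from 4.22 to 14.69. They are given as mean ± SD over mice, and levels of different probes are not set against each other. Changes are differences of log2 means from limma's linear model over all 32 arrays, given ± SE, with Benjamini-Hochberg adjusted p-values over the 13439 genes. The words rose and fell stand for an adjusted p of at most 0.05. Each array detected 13280 to 14357 probes. Of the 30 members, 24 were detected on all 32 arrays, among them Actg2, Acta2, Myh11 and Cnn1, which mark smooth muscle. Des was among them too, and it is also on the list of pericyte genes used below. The least often detected were Ldb3 (6 arrays), Pln (11 arrays) and Synpo2 (14 arrays). Of the genes typical of striated muscle, Myh1 and Mybpc3 were detected on 1 array each, Myl3 and Myl7 on 2 each and Nkx2-5 on 3. Others of these genes were detected widely, namely Acta1, Tnni2 and Myl4 on all 32 arrays, Tnnt3 on 31, Actc1 on 30, Ckm on 27, Actn2 on 22 and Tnnc1 on 21. A list of placenta and yolk sac genes exceeded its time point median by more than 0.5 log2 in 3 libraries, namely E10.5 replicate 4 (by 1.52), E17.5 replicate 2 (by 3.07) and E17.5 replicate 5 (by 1.58). E17.5 replicate 2 was also the lowest mouse of its time point for 23 of the 30 members, and E10.5 replicate 4 for 18 of them. The part of this in the results was not tested, and values without these 3 libraries are given where they change a call. In whole tissue, fewer muscle cells and less RNA per cell cannot be told apart.

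As a set, the members were highest early in pregnancy. Within pregnancy 20 of the 30 had their highest mean at E6.5, against 28.4% of all genes. The lowest mean was at E10.5 for 9 members, at E12.5 for 8 and at E17.5 for 8. Over all genes these shares were 14.9%, 12% and 19.9%. The mean over the 30 members was 9.53 ± 0.13 in NP and 9.97 ± 0.08 at E6.5. It was 9.79 ± 0.18 on E8.5, then 9.57 ± 0.15 (E10.5), 9.56 ± 0.20 (E12.5), 9.66 ± 0.08 (E15.5) and 9.64 ± 0.27 (E17.5). The lowest E6.5 mouse (9.86) was above the highest NP mouse (9.64) on this mean, and the later groups overlap each other. Behind the mean lie genes that rose once and stayed up, and others that fell below the NP level. A moderated F test over the 6 pregnant time points called 11 of 30 members, and it called 37.9% of all genes, so the share of members called was close to the background. The 11 were Tpm2, Smtn and Lmod1 of the thin filament, Myh11, Mylk and Ppp1r14a of the thick filament and its switch, Pdlim3 and Pgm5 of the dense bodies and plaques, the transcription factor Srf, and Pln and Atp2a2 of the calcium store.

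**Figure D1:**
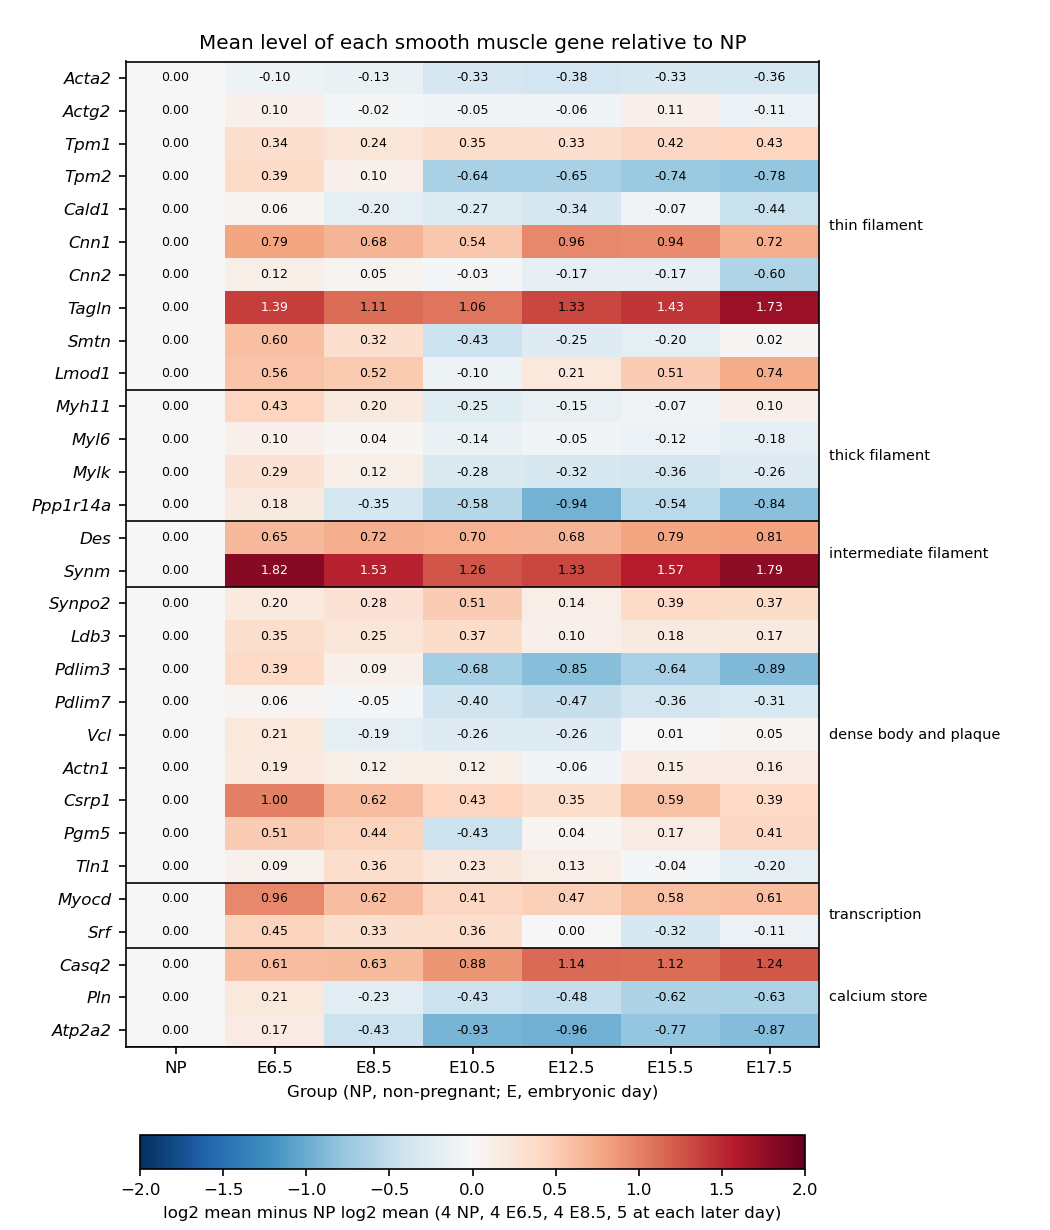
Mean log2 level of each of the 30 members at the 7 time points minus its mean in NP, with genes in rows grouped by role, time points in columns and red for higher than NP. Synm (1.82 at E6.5) and Tagln (1.39 at E6.5) stay high to E17.5. The probes taken for Pdlim3, Atp2a2, Tpm2 and Ppp1r14a are below NP from E10.5 onward, and those for Atp2a2 and Ppp1r14a already at E8.5. A brighter Tpm2 probe, not shown here, had means of 13.56 in NP, 13.49 at E10.5 and 13.62 at E17.5.

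From NP to E6.5, 6 of 30 members rose and none fell, while 4.59% of all genes rose and 3.63% fell. This comparison takes in all of pregnancy up to E6.5, as no earlier day was sampled. Of the 30 means 29 were higher at E6.5, with a median change of 0.35 log2, against a median of -0.0054 over all genes. In 11 members every E6.5 mouse was above every NP mouse, which was so for 6.63% of all genes, and in none was every E6.5 mouse below (5.55% of all genes). Acta2 was the 1 member with a lower mean (change -0.10 ± 0.15 SE, adjusted p = 0.82). Unadjusted p-values below 0.05 were found for 12 members, and for 2619 of all 13439 genes.

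Among thin filament genes Tagln and Cnn1 rose. Tagln encodes transgelin, an actin-binding protein that is an early mark of smooth muscle. NP replicates 1 to 4 read 11.17, 10.47, 10.43 and 10.71 for Tagln, and E6.5 replicates 1 to 4 read 12.22, 12.02, 11.90 and 12.19. The groups do not overlap, and the level rose by 1.39 ± 0.21 log2 (2.62-fold, adjusted p = 4.5e-05). Cnn1 encodes calponin, which binds actin and slows myosin, and it rose by 0.79 ± 0.24 log2, from 5.43 ± 0.38 to 6.22 ± 0.20 (adjusted p = 0.033). Without NP replicate 2, NP replicate 3, E6.5 replicate 1 or E6.5 replicate 3, Cnn1 missed the threshold (adjusted p up to 0.15). The other 8 genes of this group were not called: Acta2, Actg2, Tpm1, Tpm2, Cald1, Cnn2, Smtn and Lmod1. For Smtn and Tpm1 every E6.5 mouse was nevertheless above every NP mouse.

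Both intermediate filament genes rose, Synm the most of all members. Synm encodes synemin and Des desmin, proteins that link dense bodies into a web through the cell. For Synm, NP replicates 1 to 4 read 8.60, 7.52, 9.53 and 9.20, a wide spread, and E6.5 replicates 1 to 4 read 10.61, 10.49, 10.67 and 10.36. The change was 1.82 ± 0.30 log2 (3.52-fold, adjusted p = 0.00011). For Des the NP mice read 13.42, 12.76, 13.28 and 13.08 and the E6.5 mice 13.89, 13.59, 13.76 and 13.89. The groups do not overlap for either gene, and Des rose by 0.65 ± 0.14 log2 (adjusted p = 0.0017).

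Of the 9 measured genes of dense bodies, dense plaques and actin crosslinking, Csrp1 rose. It encodes a LIM domain protein that binds the actin crosslinker actinin. NP replicates 1 to 4 read 7.69, 7.20, 6.92 and 7.05 and E6.5 replicates 1 to 4 read 8.48, 8.27, 8.17 and 7.93. All 4 E6.5 mice were above the NP mice, and the change was 1.00 ± 0.27 log2 (2.00-fold, adjusted p = 0.015, or 0.06 without E6.5 replicate 1). Of the transcription genes Myocd, which encodes myocardin, rose by 0.96 ± 0.28 log2, from 8.92 ± 0.31 to 9.89 ± 0.48 (adjusted p = 0.03). It missed the threshold without any 1 of NP replicates 1, 2 and 4 or E6.5 replicates 1 and 2 (adjusted p up to 0.12), and its 2 dimmer probes were not called (changes 0.17 and 0.41). Without E6.5 replicate 1, the calls in this comparison came to 3, as Cnn1, Csrp1 and Myocd were lost. None of the 4 measured genes of the thick filament and its switch, and none of the 3 of the calcium store, passed the test here.

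**Figure D2:**
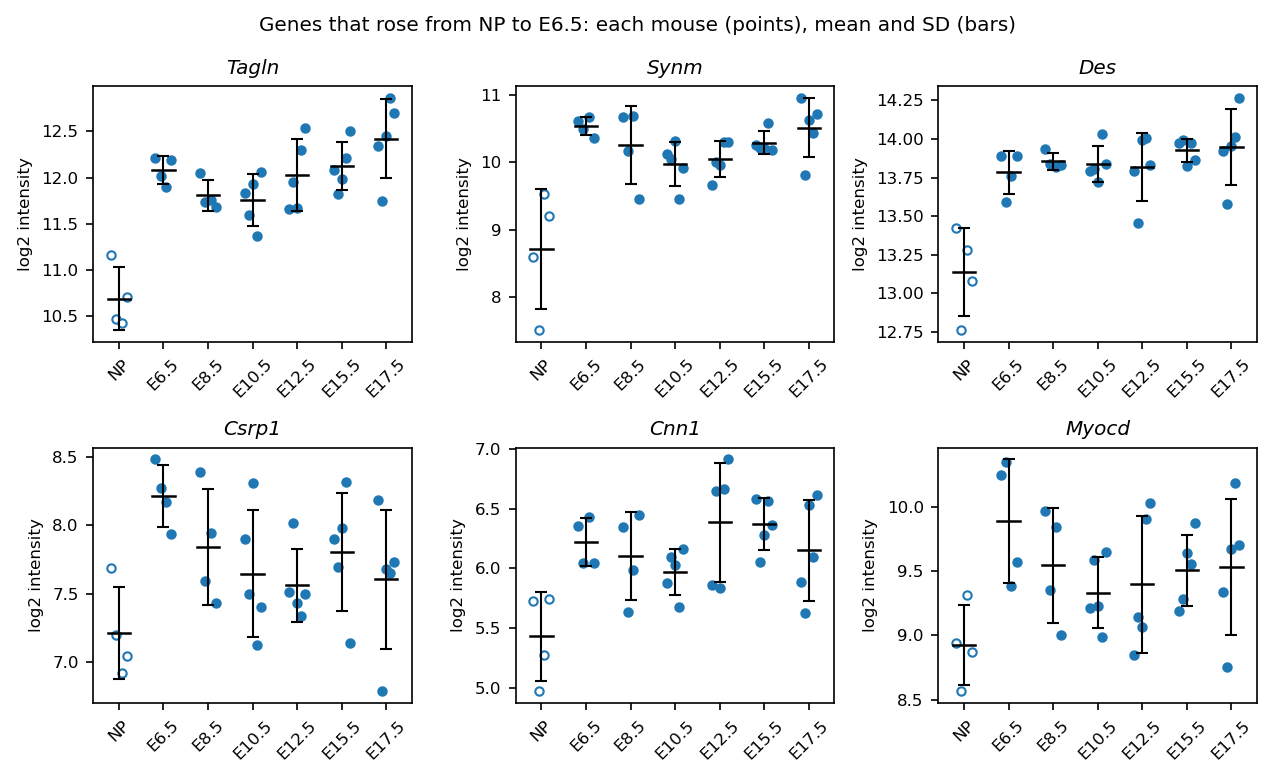
Log2 intensity of the 6 genes that rose from NP to E6.5, with 1 point per mouse (open for NP), the mean as a line and 1 SD as bars, over the 7 time points. In each panel the 4 NP points lie below the 4 E6.5 points, as for Tagln with NP mice at 10.43 to 11.17 and E6.5 mice at 11.90 to 12.22.

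Genes of other cell types moved over the same step. A list of 11 measured epithelial genes had a mean of 9.13 in NP (8.17 to 10.25 by library) and 7.25 at E6.5 (7.05 to 7.54), and 7 of the 11 fell. Of 10 endothelial genes 6 rose, with a list mean of 8.08 in NP (7.67 to 8.59) and 8.83 at E6.5 (8.69 to 8.93). Of 8 genes of pericytes and vascular mural cells, 1 rose, and this was Des itself. All 8 of these means were higher at E6.5, with a median change of 0.37 log2. Of 9 stromal fibroblast genes 2 rose and none fell (list mean by library 10.83 to 11.26 in NP and 11.30 to 11.55 at E6.5). Of 9 decidua genes 2 rose and none fell (6.05 to 6.62 and 6.38 to 6.86). Of 12 genes of skeletal muscle 4 rose, among them Tnnt3 by 1.46 log2. The part of these cell types in the rise of the members was not tested.

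The next step showed no call. From E6.5 to E8.5 limma called none of the 30 members, while 2.14% of all genes rose and 1.70% fell. An unadjusted p below 0.05 was found for 2 members, and for 2337 of all 13439 genes. Of the means 26 were lower at E8.5, and the median change was -0.12 log2, against -0.0152 over all genes. In 1 member every E8.5 mouse was below every E6.5 mouse and in 0 members above (6.70% and 6.64% of all genes). From E8.5 to E10.5 Pgm5 and Tpm2 fell and none rose. At this step 9 members and 2401 of all 13439 genes had an unadjusted p below 0.05. Over all genes 2.37% fell and 2.25% rose, and 25 of the 30 member means were lower, with a median change of -0.18 log2. In 5 members every E10.5 mouse was below every E8.5 mouse, which was so for 6.13% of all genes, and in 0 members above (3.83%).

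Pgm5 encodes aciculin, a relative of phosphoglucomutase that sits at dense plaques. E8.5 replicates 1 to 4 read 9.56, 9.56, 9.97 and 9.09, and E10.5 replicates 1 to 5 read 8.81, 8.41, 8.62, 8.35 and 9.19. The groups overlap by 1 mouse, E10.5 replicate 5, and the change was -0.87 ± 0.24 log2 (adjusted p = 0.036). A second and brighter Pgm5 probe (mean 10.49) was not called, at -0.54 ± 0.23 log2 (adjusted p = 0.19). Tpm2 encodes beta-tropomyosin, which lies along the actin filament. The Tpm2 probe taken read 6.17, 5.72, 5.90 and 5.83 at E8.5 and 5.26, 4.86, 5.30, 5.13 and 5.25 at E10.5. The groups do not overlap, and the change was -0.74 ± 0.21 log2 (adjusted p = 0.039). A brighter Tpm2 probe had means of 13.60 ± 0.41 at E8.5 and 13.49 ± 0.20 at E10.5, and with it the call was lost. Both calls were fragile. Without the 3 libraries high in placenta and yolk sac genes no member fell, and Pgm5 was then at an adjusted p of 0.052 and Tpm2 at 0.075. Pgm5 also missed the threshold without any 1 of E8.5 replicates 1 to 3 or E10.5 replicates 1 to 4 (adjusted p up to 0.15). Tpm2 missed it without any 1 of E8.5 replicates 1, 3 and 4 or E10.5 replicates 1, 2 and 4 (adjusted p up to 0.11). Over the same step 4 of 11 epithelial genes rose.

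No member was called in the 3 later steps. From E10.5 to E12.5, where 0.625% of all genes rose and 0.729% fell, 1 member had an unadjusted p below 0.05. So did 1568 of all 13439 genes. From E12.5 to E15.5 (0.871% rose, 0.558% fell) no member had one, beside 1568 of all genes, though 22 of 30 means were higher at E15.5. From E15.5 to E17.5 (0.305% rose, 0.134% fell) 2 members had one, beside 1123 of all genes, and 15 means were higher and 15 lower. In none of these 3 steps did the groups of a member lie apart. Over all genes they lay apart upward in 1.63%, 1.69% and 0.997% and downward in 1.89%, 1.30% and 0.640%, in the order of the steps.

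**Figure D3:**
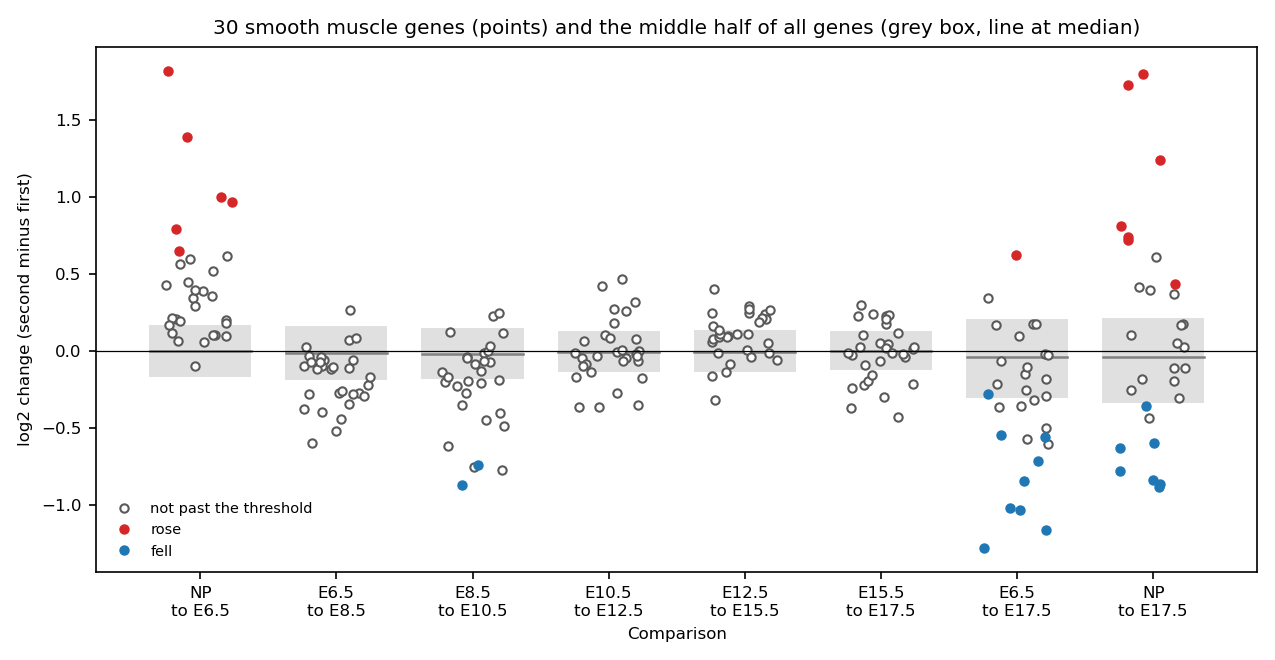
Log2 change of each of the 30 members (points, filled where called, red for rose and blue for fell) in the 8 comparisons, beside the range between the lower and upper quartile of all 13439 genes (grey box, with a line at the median). The points lie above the median of all genes for 29 members from NP to E6.5 and mostly below 0 in the next 2 steps, and no point is filled in the 3 later steps.

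From E6.5 to E17.5, the span of pregnancy measured here, 9 of 30 members fell and 1 rose, while 17.0% of all genes fell and 12.3% rose. By role, 3 of 4 genes of the thick filament and its switch fell, 2 of 3 of the calcium store, 2 of 10 of the thin filament, 1 of 2 of transcription, 1 of 9 of the dense bodies and plaques and 0 of 2 of the intermediate filament. The median change of the members was -0.29 log2, against -0.0401 over all genes. In 6 members every E17.5 mouse was below every E6.5 mouse, which was so for 14.0% of all genes, and in 0 members above (11.4%).

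All 3 genes of the calcium store were called, and not in the same direction. Atp2a2 encodes SERCA2, the pump that returns calcium to the store. Its E6.5 replicates 1 to 4 read 10.69, 10.77, 10.60 and 10.17 and its E17.5 replicates 1 to 5 read 10.23, 9.18, 9.34, 9.38 and 9.49. E17.5 replicate 1 alone reached the E6.5 range, and the change was -1.03 ± 0.20 log2 (adjusted p = 0.00014). Pln encodes phospholamban, the brake on this pump. It read 5.70, 5.69, 5.44 and 4.58 at E6.5 and 4.41, 4.49, 4.41, 4.67 and 4.55 at E17.5, and E6.5 replicate 4 lay within the E17.5 range. Pln was detected on 3 of 4 arrays at E6.5 and not well above background on any at E17.5, so only a bound is given for its size. By the means, its level was at least 1.28-fold higher at E6.5. This bound sets the mean of the higher group against the lowest detected signal of each array in the lower group. It leaves out the spread between mice. The limma adjusted p of 0.00084 belongs to the measured change and not to the bound. Casq2 encodes calsequestrin 2, which binds calcium within the store. It rose by 0.62 ± 0.21 log2, from 5.51 ± 0.18 to 6.13 ± 0.37 (adjusted p = 0.027), and missed the threshold without any 1 of E6.5 replicate 2, E6.5 replicate 4, E17.5 replicate 4 or E17.5 replicate 5 (adjusted p up to 0.089).

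Of the 4 measured genes of the thick filament and its switch 3 fell. Ppp1r14a encodes CPI-17, an inhibitor of myosin phosphatase, and it fell by 1.02 ± 0.26 log2, from 8.88 ± 0.29 to 7.86 ± 0.35 (adjusted p = 0.0035). Mylk encodes myosin light chain kinase and fell by 0.55 ± 0.18 log2 (adjusted p = 0.022). It missed the threshold without E6.5 replicate 2 or E17.5 replicate 2 (adjusted p up to 0.086). Myl6, a myosin light chain, fell by 0.28 ± 0.11 log2 (adjusted p = 0.046, and up to 0.15 without any 1 of 6 libraries, at E6.5 replicates 1, 2 and 4, at E17.5 replicates 2, 4 and 5). Myh11, the smooth muscle myosin heavy chain itself, was not called, with 13.79 ± 0.05 at E6.5.

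Pdlim3, a PDZ and LIM domain protein that binds actinin, had the largest fall of the 30. E6.5 replicates 1 to 4 read 12.54, 12.63, 12.67 and 12.75 and E17.5 replicates 1 to 5 read 11.19, 10.71, 11.31, 11.82 and 11.81. The tight E6.5 group lies wholly above, and the change was -1.28 ± 0.24 log2 (2.43-fold lower, adjusted p = 0.00013). Of the thin filament genes Cnn2, the calponin of many cell types, fell by 0.72 ± 0.21 log2 (adjusted p = 0.011, or 0.056 without E6.5 replicate 1). The Tpm2 probe with the highest spread read 6.33, 6.06, 6.18 and 6.19 at E6.5 and 5.05, 4.81, 5.32, 4.51 and 5.43 at E17.5. This is a fall of 1.17 ± 0.21 log2 without overlap (adjusted p = 8.4e-05), and a brighter Tpm2 probe, described below, was not called. Srf, which encodes serum response factor, fell by 0.56 ± 0.17 log2 (adjusted p = 0.012, or 0.073 without E6.5 replicate 1). Neither intermediate filament gene was called.

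Without the 3 libraries high in placenta and yolk sac genes, the number of members that fell from E6.5 to E17.5 was 6, as Cnn2 (adjusted p = 0.073), Mylk (0.12) and Myl6 (0.27) missed the threshold. Pdlim3 then changed by -1.21 log2, Atp2a2 by -0.91 and Ppp1r14a by -0.85, and all 3 were still called. Over this span 10 of 11 epithelial genes rose (list mean by library from 7.05 to 7.54, then from 9.91 to 10.6). Of 10 placenta and yolk sac genes 6 rose and 1 fell (6.14 to 6.30 and 7.19 to 10.7), and 5 of 10 endothelial genes fell (8.69 to 8.93 and 8.34 to 8.66). Of 9 stromal fibroblast genes 4 fell (11.3 to 11.5 and 10.6 to 11.4). Of 9 decidua genes 4 fell and 3 rose (6.38 to 6.86 and 6.79 to 7.11), and of 8 pericyte genes 2 fell (9.25 to 9.47 and 8.85 to 9.39). The part of these cell types in the falls was not tested.

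**Figure D4:**
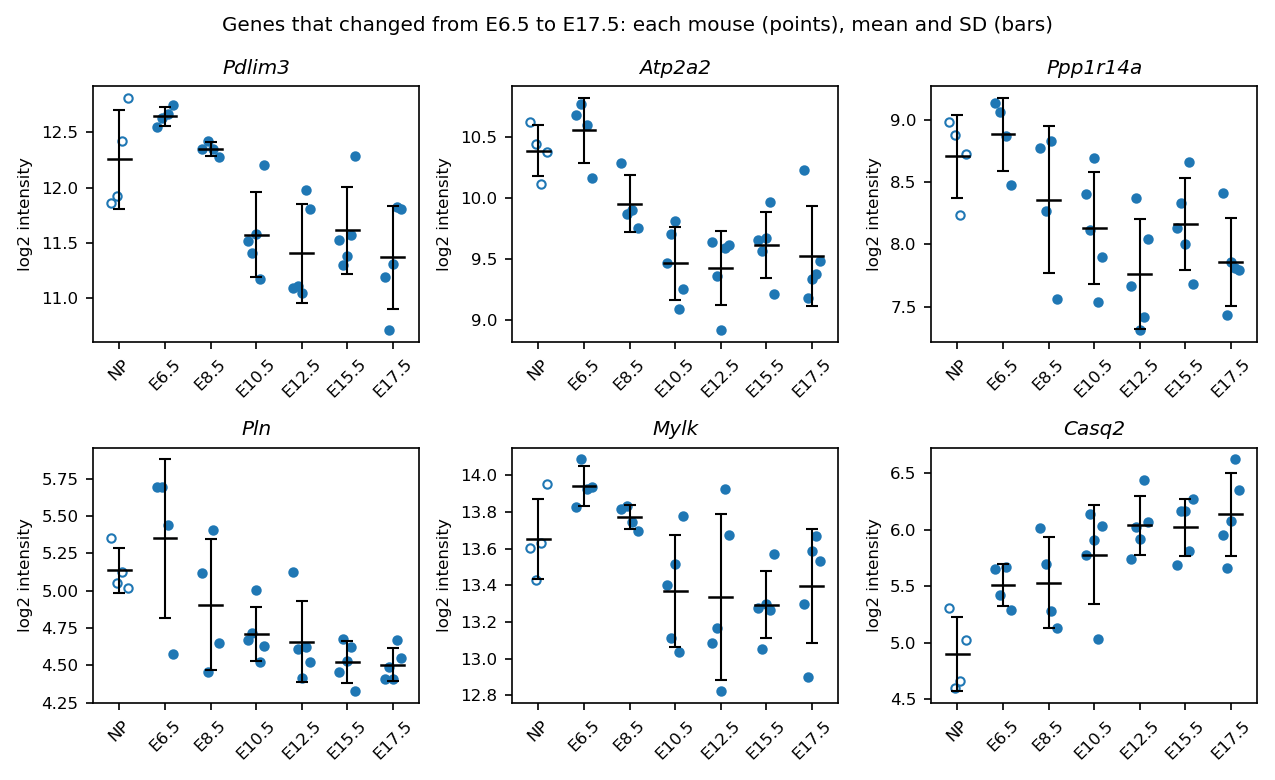
Log2 intensity of 6 genes called from E6.5 to E17.5, with 1 point per mouse (open for NP), the mean as a line and 1 SD as bars, over the 7 time points. Pdlim3 and Atp2a2 drop by E10.5 and stay low, with 1 high Atp2a2 mouse at E17.5 (10.23), and Casq2 climbs from 4.90 in NP to 6.13 at E17.5.

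Against the non-pregnant uterus the late pregnant one showed changes in both directions. From NP to E17.5, 7 of 30 members rose and 7 fell, while 14.1% of all genes rose and 19.1% fell. This comparison shares its NP mice with the first one and its E17.5 mice with the span from E6.5, so the values stand side by side and are not independent. Without overlap were 4 higher and 4 lower members, against 9.92% and 11.9% of all genes. With the arrays centred on their medians in place of quantile normalisation, 9 members rose and 5 fell.

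Tagln, at 12.34, 11.74, 12.45, 12.86 and 12.70 in E17.5 replicates 1 to 5, was 1.73 ± 0.20 log2 above NP (3.31-fold, adjusted p = 1e-07), beside 1.39 at E6.5. Synm, at 10.96, 9.81, 10.63, 10.43 and 10.72, was 1.79 ± 0.28 log2 above NP (adjusted p = 1.1e-05), beside 1.82 at E6.5. Des, at 13.93, 13.58, 13.95, 14.02 and 14.27, was 0.81 ± 0.13 log2 above NP (adjusted p = 1.1e-05), beside 0.65. In all 3 genes the E17.5 mice lay above the NP mice, including E17.5 replicate 2. Casq2 read 5.30, 4.60, 4.66 and 5.02 in NP, where 2 of 4 arrays detected it, and 5.95, 5.66, 6.08, 6.62 and 6.35 at E17.5. It rose by 1.24 ± 0.21 log2 (2.35-fold, adjusted p = 3.9e-05), without overlap.

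The other rises were in thin filament genes. Lmod1, leiomodin, which seeds actin filaments, rose by 0.74 ± 0.21 log2 (adjusted p = 0.0061), Cnn1 by 0.72 ± 0.22 (adjusted p = 0.013, or 0.076 without NP replicate 2) and Tpm1, alpha-tropomyosin, by 0.43 ± 0.12 (adjusted p = 0.0061). Among the falls, Atp2a2 was 0.87 ± 0.20 log2 below NP (adjusted p = 0.00082), Pdlim3 0.89 ± 0.24 below (adjusted p = 0.0046, or 0.058 with median centring) and Ppp1r14a 0.84 ± 0.26 below (adjusted p = 0.013, or 0.088 without the 3 libraries named above). Pln also fell (adjusted p = 0.0092 for the measured change), and by the means it was at least 1.1-fold lower at E17.5. Cnn2 fell by 0.60 ± 0.21 log2 (adjusted p = 0.03), and missed the threshold without the 3 libraries (0.15) or without any 1 of NP replicates 1 and 2 and E17.5 replicate 5 (up to 0.095). The Tpm2 and Acta2 probes taken also fell (-0.78 ± 0.21, adjusted p = 0.0046, and -0.36 ± 0.14, adjusted p = 0.047). For Acta2 the call was lost without any 1 of NP replicates 1, 2 and 4 or E17.5 replicates 1, 2 and 4 (adjusted p up to 0.19), and without the 3 libraries (0.18). Between the same mice 5 of 11 epithelial, 4 of 10 endothelial and 6 of 10 placenta and yolk sac genes rose, and their part in these changes was not tested.

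Several probes measured 13 of the 30 members, and they did not always tell the same story. Values of probes other than the one taken come from a second limma fit over all 20169 kept probes, with adjustment over those probes. For Synm, Atp2a2, Pdlim3, Ppp1r14a, Cnn2 and Mylk all probes gave the same calls from E6.5 to E17.5 and from NP to E17.5. All 3 Synm probes rose from NP to E6.5 (by 1.82, 1.58 and 1.02 log2). The second probes of Atp2a2 and Ppp1r14a also fell from E8.5 to E10.5, by 0.60 ± 0.14 (adjusted p = 0.012) and 0.66 ± 0.17 log2 (adjusted p = 0.025), a step at which the probes taken were not called. Both Srf probes fell from E6.5 to E17.5, the dim one taken (mean 5.34, 26 arrays) by 0.56 and the other (mean 10.4, 32 arrays) by 0.59 ± 0.16 log2 (adjusted p = 0.0045). From E8.5 to E10.5 they changed by 0.03 and by -0.30 log2, both not called.

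For Tpm2 and Acta2 the probes disagree. The Tpm2 probe that fell has a mean of 5.42 and was detected on 23 arrays, whereas a second probe (mean 13.5, 32 arrays) changed by -0.13 ± 0.17 log2 from E6.5 to E17.5 (adjusted p = 0.63) and by 0.06 ± 0.17 from NP to E17.5 (adjusted p = 0.86). The third was detected on 5 arrays, of which 2 were at E6.5 and 0 at E17.5, so no size of change is given for it. The transcripts behind each probe were not looked up, so no direction is given for Tpm2 as a gene. For Acta2, smooth muscle alpha-actin, 4 probes had means of 13.5 to 14.6. From NP to E17.5 they changed by -0.36 ± 0.14 (adjusted p = 0.047), -0.25 ± 0.14 (0.2), -0.02 ± 0.07 (0.91) and 0.46 ± 0.13 log2 (0.0052). Thus 1 probe fell, 1 rose and 2 did not pass the test, and the probe with the change of -0.02 lies at the top of the scale, at 14.5 to 14.7 on the NP and E17.5 arrays. With median centring the Acta2 probe of highest spread, which may be another of the 4, was higher at E17.5 by 0.61 log2 (adjusted p = 0.004). Hence no direction is given for Acta2 either.

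**Figure D5:**
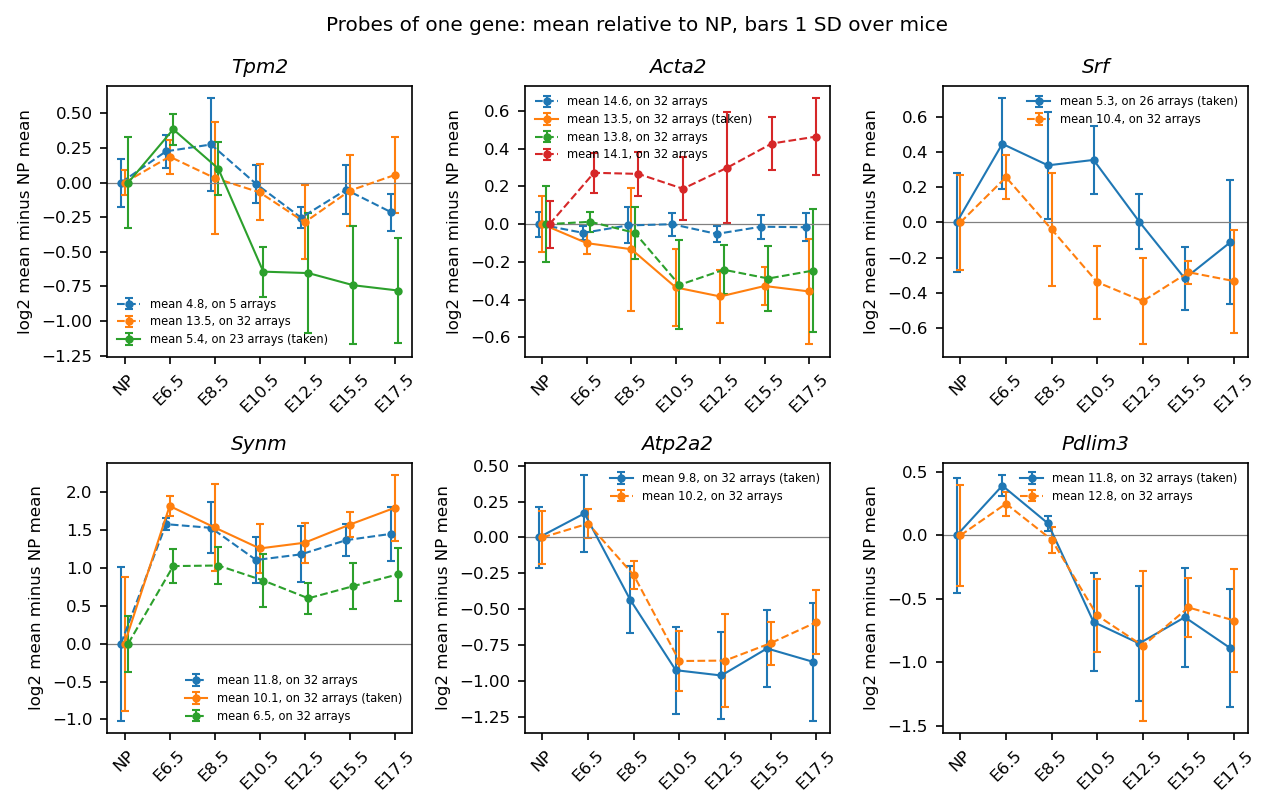
Mean log2 level minus the NP mean at the 7 time points for every kept probe of 6 members, with bars of 1 SD over mice, a solid line for the probe taken and, in the key, each probe's mean and the number of arrays that detected it. The probes of Synm, Atp2a2 and Pdlim3 run together, whereas for Acta2 1 probe ends 0.46 above NP and another 0.36 below.

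Actg2, Actn1, Vcl, Pdlim7, Tln1, Cald1, Synpo2 and Ldb3 were called in no comparison and not by the F test. Actg2, the gamma-actin of visceral smooth muscle, was between 13.96 and 14.18 in all 7 group means. This is near the top of the scale (14.69), which limits what a flat level can show. Actn1, alpha-actinin, ranged over 0.25 log2 and Vcl, vinculin, over 0.47 log2 between the 6 pregnant time points, and neither passed the F test (adjusted p = 0.6 and 0.25). Pdlim7, which links actin to signalling proteins, Tln1, talin, which ties integrins to actin, and Cald1, caldesmon, which restrains actin-activated myosin, were not called in any of the 8 comparisons. Synpo2, synaptopodin 2, and Ldb3, a PDZ and LIM domain protein also called Cypher, were near background and were not called either. Beside these genes, Smtn, smoothelin, and Myh11 passed the F test without a call in any of the 8 comparisons. Both were highest at E6.5 (13.11 and 13.79) and lowest at E10.5 (12.08 and 13.12).

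Serum response factor acts by binding the CArG box, a run of CC, then 6 bases that are each A or T, then GG, which reads alike on both strands. Some promoters that hold such a box, or a near match, are printed below, picked by hand among the members whose values are given above. Promoter windows of 250 bases before to 50 after the start of a gene were found in RefSeq (build GRCm38.p6) for 29 of the 34 members, with 35 windows in all, and Tagln, Actg2, Myh11, Myocd and Atp2a2 are not among them. A CArG box was present in 8 of the 35 windows (7 genes: Cnn2, Filip1l, Ldb3, Myl6, Myl9, Srf and Vcl) and in 1.63% of all 32851 windows of this length. With 1 G or C allowed among the 6 core bases, 11 of the 35 windows and 9.98% of all windows held a box. The sequences below lie before the start and run 5′ to 3′ towards it, with the boxes in capitals. Srf fell from E6.5 to E17.5 with both probes, Acta2 has probes that disagree, Cnn2 and Myl6 fell from E6.5 to E17.5, Pdlim3 had the largest fall, and Synm the largest rise from NP to E6.5.
Srf, chr17:46556163-46556412, minus strand: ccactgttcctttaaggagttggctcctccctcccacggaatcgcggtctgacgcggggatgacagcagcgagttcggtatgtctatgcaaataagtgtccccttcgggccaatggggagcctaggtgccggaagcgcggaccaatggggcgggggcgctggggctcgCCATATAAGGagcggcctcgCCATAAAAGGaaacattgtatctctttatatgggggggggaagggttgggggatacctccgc
Acta2, chr19:34255374-34255623, minus strand: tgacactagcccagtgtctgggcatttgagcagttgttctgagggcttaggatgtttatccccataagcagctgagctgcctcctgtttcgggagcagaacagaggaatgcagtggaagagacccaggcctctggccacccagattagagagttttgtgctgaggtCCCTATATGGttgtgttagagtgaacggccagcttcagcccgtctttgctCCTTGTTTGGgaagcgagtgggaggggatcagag
Cnn2, chr10:79988519-79988578, plus strand: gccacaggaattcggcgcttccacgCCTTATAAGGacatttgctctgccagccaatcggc
Myl6, chr10:128493025-128493084, minus strand: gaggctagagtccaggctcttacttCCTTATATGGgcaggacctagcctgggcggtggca
Pdlim3, chr8:45885362-45885421, plus strand: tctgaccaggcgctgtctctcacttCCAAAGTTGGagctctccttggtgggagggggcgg
Synm, chr7:67759933-67759992, minus strand: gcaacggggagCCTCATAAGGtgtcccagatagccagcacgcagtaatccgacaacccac
In Srf the boxes begin 82 and 62 bases before the start and have only A and T in the core. In Acta2 both boxes (84 and 34 bases before) carry 1 core G or C, as do those of Synm (239 bases before) and Pdlim3 (100 bases before). Vcl and Ldb3 also hold a CArG box and were called in no comparison. The members were chosen as smooth muscle genes, and whether a box goes with a change was not tested. A match of letters is not a site of binding.

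Other genes of the apparatus were counted from lists drawn up beside the members. Of 62 further smooth muscle and focal adhesion genes 48 were measured, and 8 rose and 1 fell from NP to E6.5, 6 fell and none rose from E8.5 to E10.5, and 6 rose and 11 fell from E6.5 to E17.5. Over all genes 4.59% rose and 3.63% fell at the first of these steps, 2.25% rose and 2.37% fell at the next, and 12.3% rose and 17.0% fell over the last span. Hspb6, a small heat shock protein of muscle, fell from E6.5 to E17.5 by 1.89 log2 (adjusted p = 2.4e-07) and Pcp4, a calmodulin-binding peptide, by 1.37 (adjusted p = 2.1e-06). Cryab, the chaperone alpha-B-crystallin that binds desmin, rose by 2.30 log2 (adjusted p = 1e-05). It is also on the list of decidua genes counted above. Of 25 genes listed as non-muscle partners 18 were measured, and from E6.5 to E17.5, 1 rose and 5 fell. Among these, Lmnb1, a lamin of the nucleus and not of the apparatus, fell by 1.28 log2 (adjusted p = 5.7e-05). Myh10, a non-muscle myosin, fell by 1.51 (adjusted p = 1.7e-05). Atp2a3, which encodes the calcium pump SERCA3, fell by 1.43 log2 (adjusted p = 5.2e-05), beside the fall of 1.03 for Atp2a2. Of the skeletal muscle genes, 5 of 12 fell over this span, among them Tnnt3 (-2.47 log2), Tnni2 (-3.11) and Acta1 (-1.30).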

How the data were processed

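The authors hybridised RNA of 32 mice to Illumina MouseRef-8 v2 arrays and deposited, for 25697 probes, raw intensities with detection p-values and log2 values. The lowest of the deposited intensities is 76.7. The deposited detection p-values compare each probe with negative controls. The deposited log2 values were made by the authors with limma (normexp background correction on control probes, quantile normalisation), and computing them anew from the intensities gave a median absolute difference of 0.000323.

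Left out were 5528 probes that no array detected at a p-value of 0.05, and the probe with the highest standard deviation stood for a gene (13439 genes). A linear model with a mean per time point was fitted with limma 3.58.1 in R 4.3.3 (lmFit, eBayes). Its p-values were adjusted by Benjamini-Hochberg within a comparison over all genes, and an adjusted p of at most 0.05 was called. A moderated F test compared the 6 pregnant time points. The procedure was tested on simulated data. From NP to E6.5 it recovered 20.9% of changes of 0.5 log2 and 73.1% of changes of 1 log2. From E6.5 to E17.5 it recovered 32.8% and 88.1%. A member that was not called may thus still have changed. The 34 genes and the lists of other genes were chosen with earlier results of these data known. All members are named, with every mouse's value for up to 4 called members of smallest adjusted p per comparison, and up to 3 genes of each further pathway list are named by smallest F-test p. The striated muscle genes named from their lists were chosen after their values were seen. Precision is limited by 4 or 5 mice per time point, and by probes near background or near the top of the scale. The fit was repeated under 13 other settings and with each library left out.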

Additional observations from a re-analysis of the deposited data

Results flagged for a closer look

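A mouse stood apart from the rest of its time point (Dixon's ratio of gap to range) in 15 of the 210 groups of 4 or 5 mice tested over the 30 members, and chance gives about 1 in 20. These are log2 levels, and no explanation was tested. In E17.5 replicate 2, 1 of the libraries high in placenta and yolk sac genes, Tpm1 was low at 13.84 (others from 14.30 to 14.41) and Lmod1 was low at 8.72 (others from 9.44 to 9.70). In E17.5 replicate 1 Atp2a2 was high at 10.23 (9.18 to 9.49), and in E17.5 replicate 4 Ldb3 was high at 5.38 (4.44 to 4.66). At E12.5, replicate 2 was high for Cnn2 at 7.15 (6.05 to 6.31) and for Csrp1 at 8.02 (7.34 to 7.52). Replicate 4 of E12.5 was high for Tpm2 at 5.90 (4.88 to 5.16) and for Synpo2 at 5.38 (4.64 to 4.75), and replicate 1 for Pln at 5.12 (4.42 to 4.62). At E15.5, Cnn2 was low in replicate 3 at 5.73 (6.41 to 6.68), Synm was high in replicate 4 at 10.59 (10.17 to 10.25) and Pdlim3 was high in replicate 5 at 12.28 (11.30 to 11.57). Acta2 was low in E8.5 replicate 4 at 13.14 (13.75 to 13.83), Tpm1 was low in E6.5 replicate 2 at 14.02 (14.19 to 14.22), and Tln1 was high in NP replicate 4 at 6.60 (6.09 to 6.14).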

How the results depend on the processing

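The 32 changes named above were recomputed under 13 other settings, of which 2 (without the 3 libraries high in placenta and yolk sac genes, and the probe detected on the most arrays) were chosen after seeing the data. Tagln, Synm and Csrp1 (NP to E6.5), Pdlim3, Atp2a2, Srf, Ppp1r14a and Pln (E6.5 to E17.5) and Tagln, Synm, Des, Casq2, Tpm1, Lmod1, Atp2a2 and Pln (NP to E17.5) were called under all 13. Values computed anew, a filter of 4 arrays, no filter, and a trended robust eBayes kept all 32 calls, and 24 held without the 3 libraries. From NP to E17.5 the direction turned for Tpm2 and for Acta2. Tpm2 changed by 0.0471 with no background correction, and by 0.0554 with the probe of highest mean and with that on most arrays. Acta2 changed by 0.61 with median centring. The Tpm2 change of 0.0554 is that of the brighter probe, so this turn compares different probes. A setting can also change which probe of a gene has the highest spread, so the other turns may do the same. The cause of those was not tested. Calls were lost for Des, Cnn1, Myocd (NP to E6.5), Myl6 (E6.5 to E17.5), Cnn1 and Acta2 (NP to E17.5) with only the 2 groups fitted, for Myocd (NP to E6.5), Pgm5 (E8.5 to E10.5), Mylk, Myl6 and Casq2 (E6.5 to E17.5), Acta2 and Pdlim3 (NP to E17.5) with median centring, and for Tpm2 in all 3 comparisons with no background correction or the brighter probe. Median centring moved the median change of all genes to 0.12 from NP to E6.5 and to -0.13 from E6.5 to E17.5 (deposited values: -0.0054 and -0.0401), beside members' medians of 0.46 and -0.21. The count that rose from NP to E6.5 was 3 with only the 2 groups fitted. The count that fell from E6.5 to E8.5 was 1 with array weights. The count that fell from E8.5 to E10.5 was 1 with no background correction, median centring, the mean of a gene's probes or the probe on most arrays, 4 with array weights or only the 2 groups, and 0 without the 3 libraries. The count that rose from E6.5 to E17.5 was 0 with median centring, and the count that fell from NP to E17.5 was 4 without the 3 libraries. With the replicate number as a block, 6 members fell from E8.5 to E10.5, 11 fell and 0 rose from E6.5 to E17.5, and 13 passed the F test. The labels tie the number to no litter or batch. Correlations of same-numbered mice ran from -0.153 to 0.145 (NP to E6.5), 0.0156 to 0.228 (E6.5 to E8.5), -0.115 to 0.218 (E8.5 to E10.5) and -0.0438 to 0.238 (E6.5 to E17.5), not all over 0.1 in any comparison, so the mice are taken to share only a number. Leaving out 1 library at a time, the counts ran from 3 to 6 (rose, NP to E6.5), 0 to 1 (fell, E6.5 to E8.5), 0 to 3 (fell, E8.5 to E10.5), 0 to 1 (rose, E6.5 to E17.5), 6 to 11 (fell, E6.5 to E17.5, 6 without E6.5 replicate 1), 6 to 9 (rose, NP to E17.5), 5 to 7 (fell, NP to E17.5) and 9 to 14 (F test). A block for the chip was not run, since no source used here names the chip of an array.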
